A study of Drosophila melanogaster with 9 samples.

Results

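Male first instar larvae of Drosophila melanogaster that lack both roX RNAs were compared with wild-type female larvae by sequencing of polyadenylated RNA. The comparison takes every library labelled as a roX1 roX2 double knockout male and every library labelled as a wild-type female, 3 of each, which is 6 of the 9 libraries of the series. The knockout males carry the alleles roX1[ex6] and roX2[9-4] and are called roX-KO males here. The other 3 libraries come from wild-type males and are given beside the comparison where they bear on it. All larvae are whole animals of the same labelled stage. The labels give no stock, cross, rescue construct or collection date, and they do not say how many larvae made up a library or whether replicates came from separate cultures, so the p-values here cover no more than the spread among these libraries.

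Male flies have a single X chromosome and females a pair. In males the MSL complex, built from the proteins MSL1, MSL2, MSL3, MLE and MOF and from a roX RNA, gathers on the X and raises its transcription. In females the RNA-binding protein Sex-lethal blocks the production of MSL2, so the complex does not form and the roX RNAs do not accumulate. Both groups compared here are therefore poor in roX RNA, and they differ in X number, in sex, in the presence of a Y and in the roX alleles.

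The libraries held 17318293 to 18020359 reads counted in genes. The roX-KO libraries correlated with each other at Pearson's r of 0.994 to 0.996 across genes (log2 CPM, counts scaled to library size), and females 1 and 2 correlated at 0.996. Female 3 stood apart from the other females, with r of 0.953 and 0.956. Its deviation followed gene length. On the large autosomal arms (2L, 2R, 3L and 3R), genes in the shortest quartile of exon length were 0.62 higher in female 3 than in the mean of females 1 and 2 (median difference in log2 CPM), and genes in the longest quartile were lower by a median of -0.71. The same medians between females 2 and 1 were 0.04 and -0.03. Shifts, counts and medians of whole lists are therefore given with and without female 3, and the 107 named genes that could be tested were each compared both ways. None of these 107 lost its call or changed direction without female 3. Most of them were picked by their calls with all 6 libraries, and the libraries varied less without female 3, so a lost call was unlikely. Log2 folds did change in size, some to smaller values (RpL7A from -1.25 to -0.77) and some to larger ones (Sxl from -1.09 to -1.24). Further list members named below are not among the 107. The labels do not say whether female and male libraries were collected or sequenced together, so such a difference cannot be told apart from sex. The protocol text of the female samples names male larvae, as that of the other samples does, while their titles and sex labels say female.

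The counts of the sex-specific genes followed the labels in all 6 libraries. FDY, a gene of the Y chromosome (FBgn0265047, chrY:3022289-3024024, plus strand, dm6), had 436, 354 and 417 counts in roX-KO males and 4, 5 and 4 in females. The log2 fold was 6.31 ± 0.20 (SE, 3 libraries per group here and below; edgeR quasi-likelihood adjusted p = 9.83e-06). Wild-type males had 104, 105 and 108 counts of FDY, so the roX-KO libraries were above both other groups without overlap. FDY arose from a copy of the autosomal gene vig2, which had a log2 fold of 0.17 ± 0.12 (adjusted p = 0.303). Without female 3 vig2 had a log2 fold of 0.19 and an adjusted p of 0.0106.

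Sxl (FBgn0264270, chrX:7074550-7098053, minus strand), the master switch of female development, had 1034, 1146 and 1044 counts in roX-KO males and 2534, 2172 and 1406 in females. The groups did not overlap, and Sxl was lower in the roX-KO males, with a log2 fold of -1.09 ± 0.18 (adjusted p = 0.00483; -1.24 without female 3). The RNA of msl-2 (FBgn0005616, chr2L:3462218-3466112, minus strand), whose translation Sex-lethal blocks, had 947, 837 and 955 counts in the roX-KO males against 254, 198 and 64 in the females. It was higher by a log2 fold of 2.26 ± 0.38 (adjusted p = 0.00548; 1.90 without female 3). Wild-type males had 593, 512 and 622 counts of msl-2, between the other groups.

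The roX1 RNA (FBgn0019661, chrX:3857230-3862697, minus strand) had 63, 52 and 68 counts in the roX-KO males, 440, 403 and 314 in the females and 5571, 4964 and 6002 in the wild-type males. The roX-KO males were thus below the females as well, with a log2 fold of -2.84 ± 0.15 (adjusted p = 3.23e-05). For roX2 the counts were 0, 0 and 0 in the roX-KO males, 3, 4 and 6 in the females and 150, 181 and 162 in the wild-type males, too few in the first pair of groups to enter the test.

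**Figure D1:**
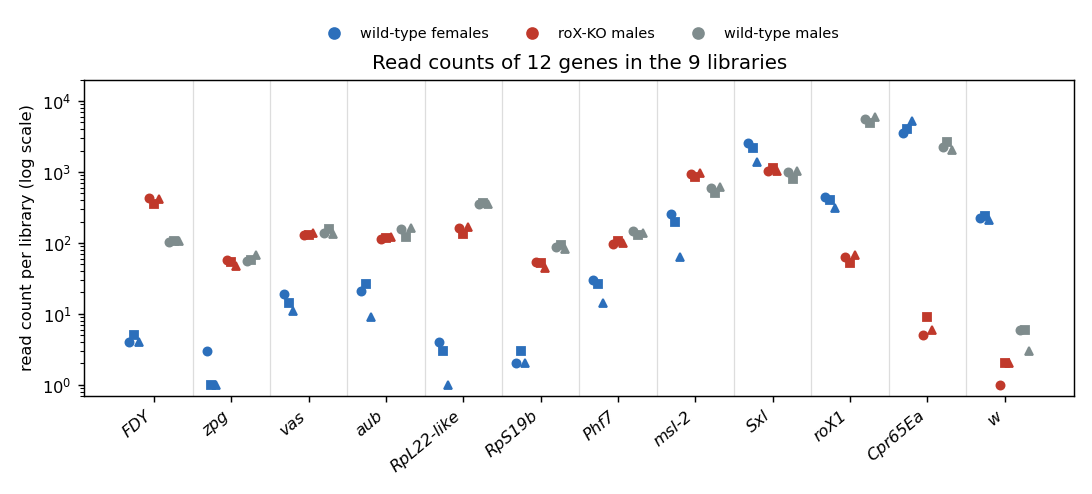
Read counts per library on a log scale for 12 genes in wild-type females (blue), roX-KO males (red) and wild-type males (grey), with circles, squares and triangles for replicates 1, 2 and 3. FDY has 4 or 5 counts in each female library and 354 to 436 in the roX-KO males, roX1 is lowest in the roX-KO males, and Cpr65Ea has 5 to 9 counts there against 2015 to 5259 in the wild-type groups.

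The X chromosome was lower in the roX-KO males than in the females along its whole length. Of 1751 X genes tested, 661 were lower (37.7%) and 58 higher (3.31%), and the median log2 fold was -0.45, a fold of 0.730. On the arms, 1183 of 9289 genes were lower (12.7%) and 1122 higher (12.1%), with a median of 0.06. Over all 11173 genes tested, 27.2% were called, 1193 higher (10.7%) and 1851 lower (16.6%), at an adjusted p under 0.05. Without female 3, 1228 of 1764 X genes were lower (69.6%) and 130 higher, with a median of -0.47, and 3384 of all 11280 genes were higher (30.0%) and 3566 lower (31.6%). Leaving out a roX-KO library moved the counts the other way, to between 524 and 615 genes higher and 1014 to 1094 lower.

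Scaling set how the calls split. Of the calls, 39.2% were higher with TMM factors. With TMM factors taken only from arm genes, the calls were 995 higher and 2111 lower. Under scaling by total counts, 1775 were higher and 1311 lower, 57.5% of the calls were higher, and the median over all genes moved up by 0.21 (log2). A measure within each library avoids this choice. The X shift is the median deviation of a library's X genes from their means over the libraries, minus the same median over arm genes. It was -0.25, -0.23 and -0.27 in roX-KO males and 0.28, 0.29 and 0.15 in females. All roX-KO libraries lay below all female libraries. The difference was -0.49 (log2), an X level lower by 28.8% relative to the arms (exact two-sided permutation p = 0.1, the smallest that 3 libraries against 3 allow). Without female 3 it was -0.53.

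Set on the same scale with all 9 libraries, the wild-type males stood next to the females, at a difference of -0.03 (exact permutation p = 0.6). The roX-KO males differed from the wild-type males by -0.45 (exact permutation p = 0.1). These comparisons share libraries with each other and are given side by side only.

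**Figure D2:**
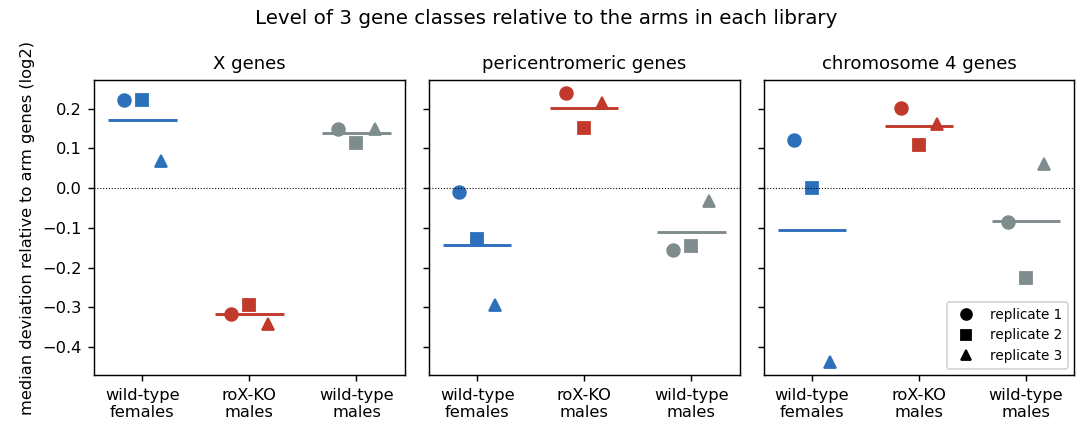
Median deviation (log2) of X genes, pericentromeric genes and chromosome 4 genes relative to arm genes in each of the 9 libraries, with a horizontal line at each group's mean and a marker for each replicate. The roX-KO males lie below both wild-type groups for the X and above them for pericentromeric genes, while female 3 is the lowest library for chromosome 4.

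The lower level of the X was spread over genes and regions. In 12 windows of 2 Mb from the left end of the X, the median log2 fold lay between -0.35 and -0.58, and between 32.6% and 43.8% of the tested genes in a window were lower. Divided by mean level over all genes, X genes of the lowest quartile had a median of -0.35 and those of the highest quartile of -0.54, with 27.5% and 45.0% called lower. The arm genes of those quartiles had medians of 0.05 and 0.01. Of the X genes tested, 19.0% were at or beyond a 2-fold reduction, against 7.64% of arm genes.

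**Figure D3:**
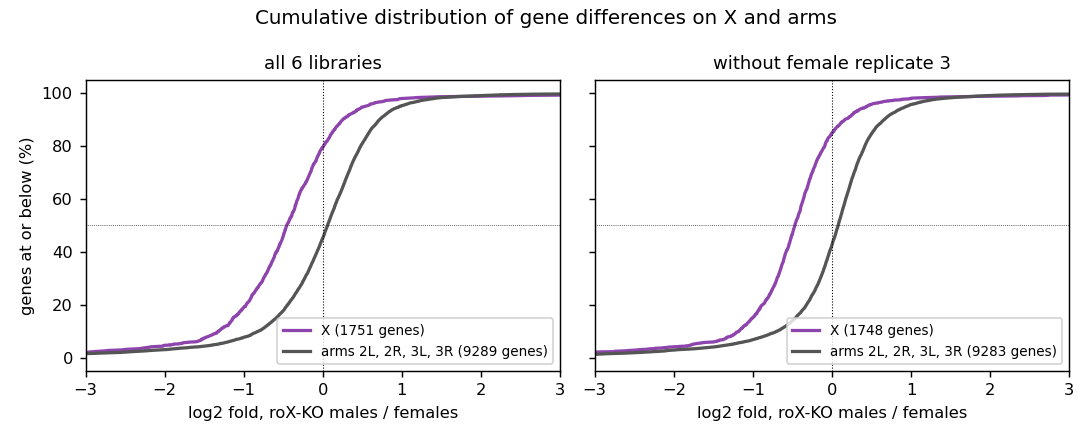
Cumulative share of genes (y axis, %) at or below each log2 fold between roX-KO males and females (x axis) for X genes (purple) and arm genes (grey), with all 6 libraries on the left and without female 3 on the right for genes tested both ways. The X curve lies to the left of the arm curve in both panels, and 79.4% of X genes are below 0 with all libraries against 45.1% of arm genes.

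The X medians varied with exon length and stayed below 0. From the shortest to the longest quartile, X genes had median log2 folds of -0.80, -0.64, -0.49 and -0.15, and arm genes -0.22, -0.03, 0.13 and 0.33. Without female 3 the X medians were -0.57, -0.54, -0.50 and -0.35, and the arm medians 0.00, 0.07, 0.08 and 0.14. The X lay below the arms in every quartile either way.

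**Figure D4:**
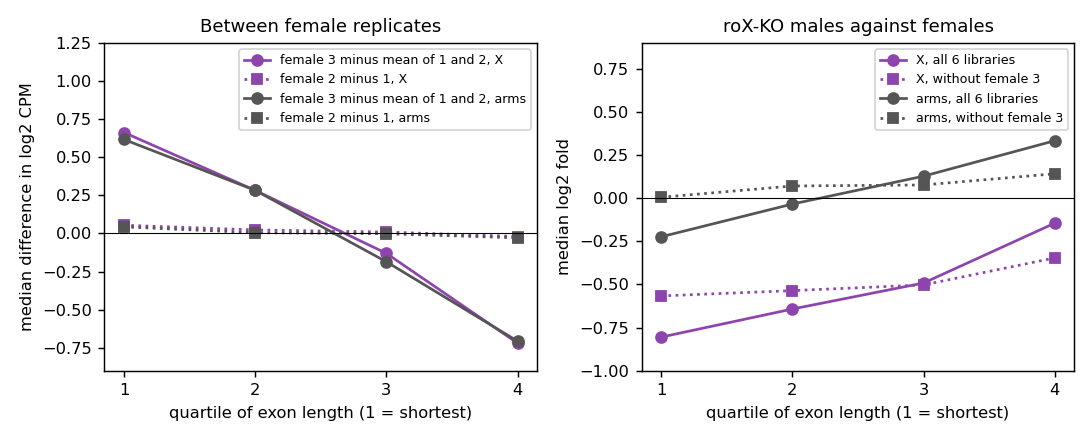
Medians by quartile of exon length (1 is the shortest) for X genes (purple) and arm genes (grey). The left panel shows differences in log2 CPM between female replicates, which reach 0.62 and -0.71 on the arms for female 3 and stay near 0 for female 2 against female 1, and the right panel shows log2 folds of roX-KO males against females with female 3 (solid) and without it (dotted).

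Few X genes went against the chromosome. Among X genes with a mean log2 CPM of at least 1, little overlap with another gene and a symbol other than a CG or CR number, the 4 largest rises were in fiz, Phf7, upd3 and Mybbp1A. X genes with larger log2 folds lay below that level or had a CG number, fs(1)N (4.65) among them. Phf7, a chromatin reader that promotes male identity in germ cells, had 98, 106 and 100 counts in roX-KO males and 30, 26 and 14 in females, with a log2 fold of 1.94 ± 0.23 (adjusted p = 0.00109). Wild-type males had 147, 128 and 139. The gene fiz had 2903, 2396 and 2977 counts against 697, 715 and 411, a log2 fold of 2.01 ± 0.18. Wild-type males had 226, 196 and 225 counts of fiz, below the females. The cytokine gene upd3 had a log2 fold of 1.17 ± 0.26 (adjusted p = 0.0174) and lost its call in 3 of the 6 fits that leave out a library, without roX-KO replicate 1 (adjusted p = 0.0704), roX-KO replicate 3 (0.0768) or female replicate 2 (0.054). Mybbp1A had 1.16 ± 0.16.

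Within the same limits on level, overlap and symbol, the largest falls on the X were in the eye pigment gene v, which encodes tryptophan oxygenase, in the cuticle genes TwdlY and Cpr5C, and in y. Larger falls outside those limits included w and CG3588, described next. The gene v had 46, 38 and 39 counts in roX-KO males and 1122, 1135 and 1452 in females, with a log2 fold of -5.12 ± 0.24 (adjusted p = 2.83e-05). The gene y, needed for black cuticle pigment, had 67, 60 and 57 counts against 813, 775 and 524, a log2 fold of -3.69 ± 0.16. Wild-type males had 892, 897 and 816 counts of v and 438, 370 and 427 of y, so neither gene was as low in them as in the roX-KO males. In the wild-type males y was also lower than in the females, by a log2 fold of -0.72 (edgeR adjusted p = 0.0128). For v the log2 fold was -0.50 (adjusted p = 0.135).

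Of 23 eye and body colour genes 5 were higher and 7 lower, with a median of -0.29 (6 and 13 without female 3, median -0.34), where 10.7% and 16.6% of all genes were called higher and lower (30.0% and 31.6% without female 3). The eye colour gene w had 1, 2 and 2 counts in the roX-KO males, 223, 237 and 212 in the females and 6, 6 and 3 in the wild-type males. Its log2 fold was -7.15 ± 0.25 (adjusted p = 1.12e-05), and both male groups were low. Nearby on the X, CG3588 (chrX:2919770-2924426, plus strand) had 0 counts in every roX-KO library, 9931, 10276 and 11493 in the females and 65, 59 and 58 in the wild-type males. It was at least 10386-fold lower in the roX-KO males, taking 3 counts over the group as the floor. CG14416 and CG14417, which lie between w and CG3588, were also at 0 in the roX-KO males, with 57, 61 and 45 and with 313, 323 and 465 counts in the females. Wild-type males had 0, 1 and 1 counts of CG14416 and 3, 3 and 6 of CG14417, so both male groups were low here too. These 3 neighbours were chosen after their values were seen. Whether the males and females come from the same stock is not stated in the labels, so stock and sex cannot be told apart for this stretch or for any other gene of the comparison.

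Genes near the centromeres went the other way from the X. Of 139 pericentromeric genes tested, 45 were higher (32.4%) and 4 lower, with a median log2 fold of 0.39. Without female 3, 87 of 141 were higher and 13 lower, with a median of 0.36. Of the other arm genes, 11.8% were higher and 12.9% lower, or 33.7% and 24.9% without female 3. The shift of pericentromeric genes relative to other arm genes was 0.19, 0.12 and 0.19 in roX-KO males and -0.05, -0.19 and -0.37 in females. The groups did not overlap, and the difference was 0.37 (exact permutation p = 0.1), or 0.28 without female 3. Wild-type males differed from the females by 0.03 (exact permutation p = 0.9).

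For chromosome 4, whose genes lie in heterochromatin-like chromatin, the size of the shift from the females rested on female 3. Of 92 genes tested, 7 were higher and 5 lower, with a median log2 fold of 0.32. The shift was 0.19, 0.08 and 0.09 in roX-KO males and 0.09, -0.02 and -0.47 in females, so that the groups overlapped. The difference of 0.25 (exact permutation p = 0.3) was 0.08 without female 3. Without that library 44 of 94 genes were called higher and 16 lower, with a median of 0.17.

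Cuticle genes made up 5 of the 8 largest falls over all chromosomes within the same limits on level, overlap and symbol. The groups did not overlap in 6110 of the 11173 genes (54.7%). Of 3044 calls with all libraries, 3037 were also made in the same direction without female 3. Acbp3, an acyl-CoA binding protein gene, had 1, 0 and 1 counts in roX-KO males and 880, 950 and 1518 in females. The ratio of 1645 has an exact 95% interval of 455 to 13593, which covers counting error only. Cpr65Ea, which encodes a chitin-binding cuticle protein, had 5, 9 and 6 counts against 3587, 4102 and 5259, with a log2 fold of -9.53 ± 0.38 (adjusted p = 1.76e-05). The Tweedle cuticle genes Twdlbeta, TwdlD, TwdlW and TwdlS followed, with log2 folds of -8.79, -7.79, -6.49 and -6.35. The other 2 of the 8 largest falls were nol, at 7, 6 and 11 counts against 1009, 1322 and 1305, and the cytochrome P450 gene Cyp6a17, at 7, 8 and 8 against 1018, 999 and 1019. In wild-type males all 8 genes had at least 71 counts per library.

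The cuticle protein list as a whole was lower. Of 129 members, 102 passed the low-count filter, and 78 of these were lower and 2 higher, with a median log2 fold of -2.38 against -0.01 over all genes. Without female 3, 88 were lower and 6 higher, with a median of -2.09. The summed level was 6839.8 to 6917 CPM in the roX-KO males and 11209.5, 12009 and 17378 CPM in females 1, 2 and 3. The members that were higher were Lcp3, with 140, 145 and 164 counts against 24, 22 and 33, and Cpr49Ac, with 5117, 4823 and 5811 counts against 2306, 2376 and 1678. Of the 8 cuticle genes on the X, 6 were lower, with a median of -1.11, and of the 94 on other chromosomes 72 were lower, with a median of -2.43. Against the females, the wild-type males had 31 members higher and 24 lower, where 11.2% and 10.8% of all 11104 genes were called higher and lower.

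In bulk RNA of whole larvae, fewer cells of a type and less RNA per cell cannot be told apart, and this holds for every tissue list here. Over all genes tested, 10.7% were called higher and 16.6% lower, or 30.0% and 31.6% without female 3. The counts of every list below stand beside these shares. Of 23 genes of the trachea and epidermis, the tissues that secrete cuticle, 13 were lower and none higher, with a median of -0.74 (20 lower and 1 higher without female 3, median -0.91). The chitin-matrix gene obst-A had 515, 585 and 556 counts in roX-KO males and 4236, 4504 and 2707 in females, with a log2 fold of -2.96 ± 0.18 (adjusted p = 6.3e-05). Gasp, another chitin-binding protein of the trachea, had a log2 fold of -1.87, and the chitin deacetylase genes serp and verm had -1.54 and -1.26. Wild-type males had 4118, 4040 and 3806 counts of obst-A, within the range of the females.

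Of 24 body wall muscle genes, 15 were lower and none higher, with a median of -0.70. Without female 3 all 24 were lower, with a median of -0.75. Mef2, the transcription factor that drives muscle differentiation, had 1966, 1926 and 1981 counts in roX-KO males and 6406, 6123 and 3110 in females, with a log2 fold of -1.58 ± 0.22 (adjusted p = 0.00229). The actin gene Act79B had -1.96, and the X-linked troponin genes wupA and up had -1.05 and -1.08. The summed muscle level was 33109 to 33379 CPM in the roX-KO males and 54658 to 59684 CPM in the females. In the wild-type males 1 muscle gene was lower than in the females and none was higher.

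Blood cell genes had 5 of 17 members lower and none higher (11 lower without female 3), and a median of -0.31 (-0.25 without female 3). The crystal cell enzymes PPO2 and PPO1, prophenoloxidases that make melanin, had log2 folds of -2.39 ± 0.13 and -2.25 ± 0.12. PPO2 had 487, 515 and 458 counts in the roX-KO males, 2284, 2321 and 2085 in the females and 1590, 1560 and 1475 in the wild-type males. The tanning enzymes ple, a tyrosine hydroxylase, and Ddc, a dopa decarboxylase, were higher in the roX-KO males. Ddc had 4736, 4544 and 4915 counts against 1056, 1094 and 805, with a log2 fold of 2.08 ± 0.12 (adjusted p = 4.54e-05), and ple had 2.25 ± 0.21. Wild-type males had 6971, 6508 and 6374 counts of Ddc, above both other groups.

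Germline genes were higher in the roX-KO males. Of 36 members of the germline and piRNA list, 33 passed the filter, 18 were higher and 1, Sxl, was lower, with a median log2 fold of 1.44. Without female 3, 23 were higher and 3 lower, with a median of 1.22. The gap junction gene zpg, active in germ cells, had 57, 54 and 48 counts in roX-KO males and 3, 1 and 1 in females, with a log2 fold of 4.71 ± 0.35 (adjusted p = 0.000141). The germ cell helicase gene vas had 129, 131 and 139 against 19, 14 and 11, with 2.99 ± 0.19, although 24.6% of its exon length lies under another gene. The piRNA pathway genes krimp, aub, spn-E, qin and piwi had log2 folds of 2.60, 2.48, 2.28, 2.23 and 1.77, and the translational repressor nanos had 1.67.

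In the wild-type males, germline genes were again above the females. They had 56, 58 and 68 counts of zpg, 139, 156 and 134 of vas and 159, 121 and 163 of aub. Against the females, 18 members were higher and 1 lower in them, with a median of 1.29. The male gonad of a larva is larger than the female one and holds more germ cells. Members with broad expression gave most of the summed level of the list, which was 1030 to 1064 CPM in the roX-KO males and 1000, 966 and 693 CPM in females 1, 2 and 3. Many replication genes and the ribosomal paralogs RpL22-like and RpS19b, given below, were also higher in both male groups than in the females. Whether germline genes and those results are linked was not tested.

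Genes of later spermatogenesis were nearly silent. Of 22 members of the testis-specific transcription list, 7 passed the filter (median 0.74), and 4 of these were higher and none lower, namely topi and mip40, regulators of transcription in spermatocytes (1.57 ± 0.33 and 0.74 ± 0.15), mia, which encodes a testis variant of a general transcription factor subunit (0.97 ± 0.20), and the meiotic phosphatase gene twe (0.75 ± 0.20). Without roX-KO replicate 3, topi and mia lost their calls, at adjusted p of 0.0586 and 0.056, and mia also without roX-KO replicate 1 (0.0625). Without female 3 the list again had 4 higher and none lower, with a median of 0.85. Of 19 genes of yolk and female reproduction, 6 passed, and fs(1)N, an eggshell gene on the X, was higher, with 60, 41 and 52 counts against 3, 1 and 1 (4.65 ± 0.37). Wild-type males had 6, 1 and 8 counts of it. The median of the tested members was 0.14, and without female 3 it was 0.41, with 2 higher and none lower. On the Y, Su(Ste):CR42407, a repeat that silences Stellate genes, had 73, 48 and 55 counts in the roX-KO males, 0, 0 and 0 in the females and 2, 1 and 2 in the wild-type males. It was at least 59.7-fold higher in the roX-KO males than in the females, and reads of its near-identical copies could not be assigned with certainty. The Y fertility genes kl-2, kl-3 and kl-5 had 0 counts in every library.

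Of 46 replication and cell cycle genes, all of them tested, 22 were higher and 3 lower, with a median of 0.60 (34 higher and 5 lower without female 3, median 0.61). The mitotic cyclin genes CycB3 and CycB had 124, 146 and 132 counts against 25, 37 and 16, and 141, 146 and 145 against 41, 44 and 24, with log2 folds of 2.19 ± 0.25 and 1.81 ± 0.19. The chromosomal passenger gene borr had 1.24 and the origin recognition gene Orc6 1.19. The lower members were sub, Cdk2 and fzr, at -1.92, -0.74 and -0.62, and 43.9% of the exon length of Cdk2 and 20.6% of that of sub lie under another gene. Cdk2 lost its call without any 1 of the roX-KO libraries (adjusted p = 0.056 to 0.0877). Against the females, 25 members were higher and 2 lower in the wild-type males.

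Among 89 cytosolic ribosomal protein genes tested, 4 alternative paralogs were called higher and 5 X-linked members lower, with a median of -0.55 (7 and 27 without female 3, median -0.10). RpL22-like had 162, 135 and 170 counts in roX-KO males and 4, 3 and 1 in females, with a log2 fold of 5.62 ± 0.29 (adjusted p = 3.23e-05). RpS19b had 54, 52 and 44 against 2, 3 and 2, with 4.17 ± 0.29. RpS10a and RpS5b had 3.25 and 1.35 (3.94 and 1.53 without female 3). These 4 were the only members called higher of 89 tested, and RpL22-like and RpS19b are known from the germline. In the wild-type males RpL22-like had 359, 370 and 349 counts and RpS19b 89, 92 and 82.

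The 5 ribosomal genes called lower, RpL7A, RpS6, RpS10b, RpS19a and RpS5a, all lie on the X, as do 15 of the members tested. Their log2 folds ran from -1.25 to -0.92. Without female 3 those of RpL7A and RpS6 were smaller, at -0.77 and -0.71. RpS5a, the partner of RpS5b, had 26277, 26730 and 25300 counts in roX-KO males and 35434, 39566 and 52022 in females. The paralogs are alike in sequence, and reads shared between them could move either count. Without any 1 of the roX-KO libraries RpL7A lost its call (adjusted p = 0.109 to 0.122), and RpS6 did too (0.0898 to 0.107). The median of the X-linked members was -0.92 and that of the other 74 was -0.50. Without female 3 these medians were -0.53 and -0.09, and 14 of the 15 X-linked members were lower.

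Nuclear genes of the mitochondria had lower medians on the X than on other chromosomes, but the medians of the others were below 0 too. All 11 X-linked oxidative phosphorylation genes were lower, with a median of -1.28, against 2 lower and 1 higher of the 59 others, with a median of -0.65. Without female 3, all 11 were again lower (median -0.84), and 45 of the 59 others were lower (median -0.27), where 31.6% of all genes were lower. ND-24, a subunit of complex I, had 1608, 1480 and 1746 counts in roX-KO males and 3063, 3092 and 5889 in females. The only higher member was ATPsynepsilonL, a paralog of an ATP synthase subunit, with 22, 22 and 22 counts against 5, 3 and 3 (2.36 ± 0.29). Of 11 X-linked mitochondrial ribosomal protein genes 9 were lower (median -1.15), and of the 61 others 1 was lower and none higher (median -0.48). Without female 3, all 11 were lower (median -0.83), and of the others 24 were lower and 3 higher (median -0.14). ND-24 lost its call without any 1 of the roX-KO libraries (adjusted p = 0.0616 to 0.0726). Of 17 genes of the mitochondrial genome 1 was lower, with a median of -0.42 (5 lower and 2 higher without female 3, median -0.26). It was mt:ATPase6, an ATP synthase subunit, at -1.61 ± 0.35, and it lost its call without any 1 of the roX-KO libraries (0.0632 to 0.0737).

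**Figure D5:**
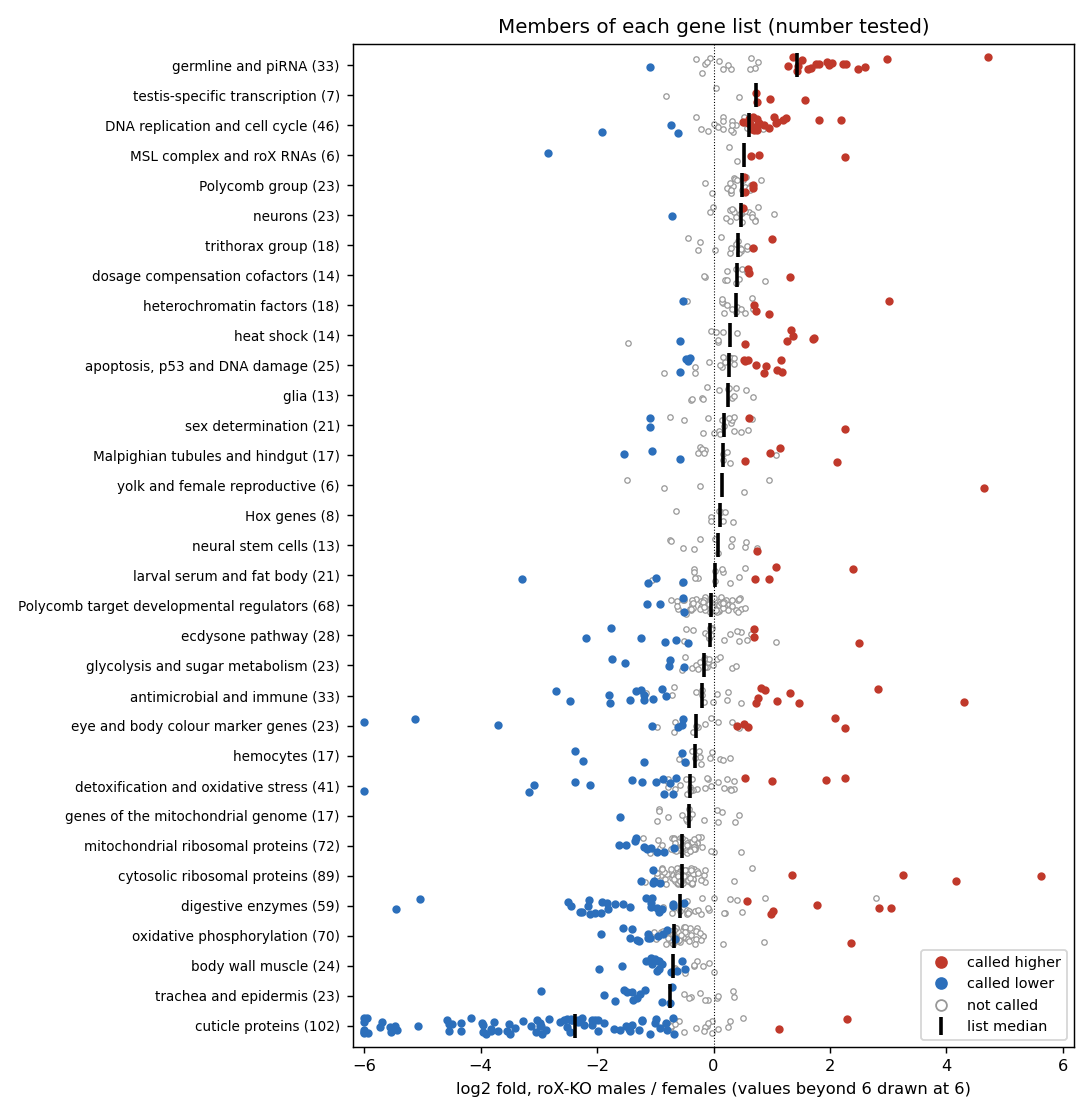
Log2 fold between roX-KO males and females (x axis) for each tested member of each gene list, ordered by list median, with filled red points for members called higher, filled blue points for members called lower, open points for the others and black bars for list medians. Germline genes lie furthest to the right with a median of 1.44 and cuticle genes furthest to the left with a median of -2.38.

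Of 14 tested heat shock genes 6 were higher in the roX-KO males and 1 lower, with a median of 0.28 (7 and 1 without female 3, median 0.12). Hsp68 had 1014, 994 and 1073 counts against 286, 278 and 255 in the females, with a log2 fold of 1.72 ± 0.11 (adjusted p = 7.46e-05). The small heat shock genes Hsp27, Hsp26 and Hsp23 had 1.70, 1.36 and 0.54, and the chaperone Hsp83 had 1.34. The lower member was the X-linked mitochondrial chaperone Hsp60A, at -0.58 ± 0.12, which lost its call with total counts (adjusted p = 0.055) and without any 1 of the roX-KO libraries (0.0597 to 0.0797). Wild-type males had 3167, 2950 and 3233 counts of Hsp68, above both groups, and all 14 members were higher in them than in the females.

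Stress and immune genes went both ways, with 9 of 33 higher and 12 lower and a median of -0.20 (11 and 14 without female 3, median -0.05). The Turandot stress peptides TotA and TotC were higher, TotA with 102, 86 and 90 counts against 6, 4 and 2 (4.31 ± 0.28) and TotC with 174, 172 and 200 against 16, 26 and 25 (2.82 ± 0.23). The antifungal peptide gene Drs was lower, with 302, 248 and 334 counts against 1361, 1504 and 2076 (-2.71 ± 0.26), and so was the peptidoglycan receptor gene PGRP-SB1 (-2.46 ± 0.27). Detoxification genes had 4 members higher and 13 lower of 41, with a median of -0.40 (11 and 25 without female 3, median -0.33). Cyp6a8 had a log2 fold of 2.26 and GstD5 of -3.17. Of 25 cell death and DNA damage genes 9 were higher and 4 lower, with a median of 0.27 (14 and 6 without female 3, median 0.28). The number lower lay near the share of all genes called lower, 16.6%. The higher members were led by the effector caspase Dcp-1 (1.17 ± 0.22) and the ATM kinase gene tefu (1.16 ± 0.19).

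Metabolic and gut genes held single large differences. FASN1, a fatty acid synthase of the fat body, had 21235, 20198 and 21566 counts in roX-KO males and 4379, 4261 and 2059 in females, with a log2 fold of 2.40 ± 0.24 (adjusted p = 0.000642). Wild-type males had 16791, 12702 and 16451. Digestive enzyme genes had 6 of 59 members higher and 27 lower, with a median of -0.58 (15 and 34 without female 3, median -0.29). With all libraries the number higher lay near the share of all genes called higher, 10.7%. The lysosomal mannosidase LManIII had 16, 15 and 16 counts against 491, 491 and 387 (-5.04 ± 0.15). The glucose-making enzyme genes fbp and Pepck2 were lower, at -1.75 and -1.51, among 5 lower and no higher members of 23 glycolysis and sugar genes with a median of -0.17 (13 and 3 without female 3, median -0.20). In the Malpighian tubules and hindgut list, 4 of 17 were higher and 3 lower, at a median of 0.15 (5 and 8 without female 3, median -0.15), with the urate oxidase gene Uro at 217, 173 and 224 counts against 41, 47 and 36 (2.11 ± 0.16).

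Other genes with large rises included gNacalpha, a subunit of a chaperone complex at the ribosome, with 149, 124 and 151 counts against 8, 7 and 7 (4.05 ± 0.20). Bace, a gut aspartic protease gene, had 800, 931 and 856 against 85, 81 and 105 (3.05 ± 0.20). Hr38, a nuclear receptor, had 438, 375 and 408 against 67, 77 and 46 (2.50 ± 0.16), and Srg2 also had 2.50. In the wild-type males gNacalpha had 289, 303 and 279 counts, above the roX-KO males, and Bace had 24, 42 and 25, below the females.

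The genes of dosage compensation and chromatin differed less. Of the MSL protein genes other than msl-2, msl-1 was higher (0.78 ± 0.19, adjusted p = 0.0227) and so was mle (0.64 ± 0.16, adjusted p = 0.0268). Values for msl-3 and mof were 0.41 ± 0.13 (adjusted p = 0.0521) and 0.26 ± 0.15 (0.22). Without any 1 of the roX-KO libraries, msl-1 had an adjusted p of 0.0784 to 0.0892 and mle of 0.086 to 0.105, and mle had 0.0514 without female 1. The splicing regulator tra, active in females, had 0.01 ± 0.20 (adjusted p = 0.976). Of 21 sex determination genes 2 were higher and 2 lower, with a median of 0.19 (6 and 4 without female 3, median 0.10). Of 14 cofactors of dosage compensation 3 were higher, Top2 (1.32 ± 0.15), a topoisomerase, among them, and none was lower, with a median of 0.41 (8 and 1 without female 3, median 0.21). Polycomb group genes had 4 of 23 higher and none lower (15 and 1 without female 3), and trithorax group genes 2 of 18 higher and none lower (11 and 2). Over all genes 10.7% were called higher, or 30.0% without female 3, so the trithorax count with all libraries lay near that share. The medians of these lists, 0.50 and 0.43, were 0.25 and 0.23 without female 3.

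Few Polycomb targets and no Hox gene passed the test. Of 68 tested developmental regulators none was higher and 4 were lower, with a median of -0.05 (2 and 23 without female 3, median -0.18). Of all genes, 16.6% were lower, or 31.6% without female 3. Of 8 Hox genes none was called in edgeR's test or by DESeq2 and 1 was lower at an unadjusted p under 0.05, with a median of 0.11, and 2 were lower without female 3, with a median of -0.13. Heterochromatin factors had 4 of 18 higher and 1 lower, with a median of 0.39 (13 and 2 without female 3, median 0.35). HP6, an HP1-like protein gene, had 12, 18 and 19 counts against 0, 1 and 4 (3.01 ± 0.69, or 4.62 without female 3), and the histone H3 methyltransferase gene Su(var)3-9 had 0.94 ± 0.17. HP6 lost its call without roX-KO replicate 2 (adjusted p = 0.0711), roX-KO replicate 3 (0.0695) or female replicate 2 (0.0618).

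The calls of neuronal and glial genes depended on the female library that stood apart. Neuronal genes had 1 of 23 members higher and 1 lower, with a median of 0.48. Their summed level was 1537 to 1578 CPM in the roX-KO males and 1378, 1294 and 750 CPM in females 1, 2 and 3. Without female 3, 13 were higher and 2 lower, with a median of 0.22. Of 13 glial genes edgeR called none, with 5 higher and 1 lower at an unadjusted p under 0.05 and 5 higher by DESeq2, and 6 were higher and 4 lower without female 3. Their median was 0.25, or 0.13 without female 3. Neural stem cell genes had 1 of 13 higher and none lower, with a median of 0.08 (4 and 5 without female 3, median -0.12). Ecdysone pathway genes had 3 of 28 higher and 6 lower, with a median of -0.05 and with ImpE2, which responds to the moulting hormone, at -2.19 ± 0.12. Fat body genes had 4 of 21 higher and 4 lower, with a median of 0.03. Without female 3 the ecdysone list had 9 higher and 9 lower (median 0.05) and the fat body list 8 higher and 8 lower (median -0.08).

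For lists with no call in 1 direction by edgeR, unadjusted p-values under 0.05 added 2 glycolysis genes higher, 1 tracheal gene higher, 1 neural stem cell gene lower and 1 gene of the yolk and female reproductive list lower. They added none for muscle, blood cells, the mitochondrial genome, mitochondrial ribosomal proteins, Polycomb targets, the Polycomb and trithorax groups, the cofactors and the testis list. DESeq2 called 2 glycolysis genes and 1 gene of the mitochondrial genome higher, and made no such call in the other lists of these.

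Some genes were read in only 1 of the 2 groups compared. At 0 counts in every female and at least 10 in every roX-KO library were 7 genes, CG12477, CG1894, Muc14A, CG32971, Su(Ste):CR42407, Su(Ste):CR42418 and CG42857. CG12477 had 27, 38 and 35 counts in the roX-KO males, at least 33.9-fold higher. The wild-type males had 99, 57 and 87 counts of it, and no more than 2 per library of the X-linked Muc14A, which had 15, 11 and 13 in the roX-KO males. They also had 29, 26 and 27 counts of CG1894, 57, 63 and 62 of CG32971 and 79, 73 and 74 of CG42857. The Su(Ste) repeats CR42407 and CR42418 had 1 to 4 counts per library in them. The opposite held for 5 genes, which were the 3 X genes near w and the chromosome 2 genes CG30486 and asRNA:CR45468, with 20, 13 and 10 and with 22, 18 and 13 counts in the females. Wild-type males had 12, 15 and 9 counts of CG30486 and 10, 18 and 14 of asRNA:CR45468. Whether the counting used strand is not given in the sources used here, so reads of an antisense gene and its partner cannot be told apart.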

How the data were processed

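Polyadenylated RNA of first instar larvae was measured in 9 libraries. The authors deposited 1 table of raw read counts per library, with 17611 gene IDs. The programs named, per the submitters' processing notes, are HTSeq 2.0.2, HISAT2 2.2.1, DESeq2 and SAMtools 1.13, and the build is dm6; the notes give no setting. A deposited table of the male libraries was not used. Reads outside genes (no_feature, 45.7% to 47.9% of the lines summed per library), ambiguous and multiply placed reads were left out. An annotation with dm6 coordinates named 17556 IDs and left 55 unmatched.

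Genes were filtered with filterByExpr (minimum count 10, minimum total 15), scaled by TMM and tested with edgeR 4.0.16's robust quasi-likelihood F-test (limma 3.58.1, R 4.3.3) on the 6 libraries. Benjamini-Hochberg adjustment ran over all genes tested, and genes under 0.05 were called. The SE is the log2 fold divided by the square root of F. Log2 CPM used a prior count of 2. Genes with 0 counts in a group use a floor of 3 counts over the group, and intervals are exact at 95%; both cover counting error only. Shifts were compared by exact permutation over libraries. DESeq2 1.42.0 was an alternative, as were other scalings and filters, a replicate block, all 9 libraries in 1 fit and leaving out each library. Tables used Python 3.11.15, pandas 2.3.3, NumPy 2.4.6, SciPy 1.17.1 and matplotlib 3.10.9. Tested on simulated data for this comparison with 11077 genes, the script recovered 80.9% of genes changed by 1 on the log2 scale and 99.1% of those changed by 2, with 2 false calls. In the simulation all libraries shared the same means apart from the changed genes, and all genes shared a common dispersion. It held no library like female 3 and no shift of the X, so these rates need not hold for the real data.

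Named were the roX, MSL, FDY, vig2, Sxl and tra genes and, among called genes with mean log2 CPM of at least 1, no overlap between groups, under 20% of exon length under another gene and a symbol other than a CG or CR number, the 8 largest rises and falls, the 4 largest each way on the X, and in each of 34 lists the 2 largest called changes each way; further members of a list and genes at 0 in 1 group were added after their values were seen. The members and lists were chosen with earlier results of these data known.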

Additional observations from a re-analysis of the deposited data

Results flagged for a closer look

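For 11 named genes the roX-KO males and the wild-type males were called in opposite directions against the same female libraries. The difference between the male groups was taken from edgeR's quasi-likelihood test of roX-KO against wild-type males. These genes were picked by their opposite calls in the same libraries, so a difference between the male groups followed from the choice. The adjusted p-values below are no separate support for it. The log2 difference was -6.72 for roX1 (adjusted p = 2.49e-12), which was -2.84 against females in the roX-KO males and 3.88 in the wild-type males. For TotC it was 4.21 (adjusted p = 1.08e-09), with 2.82 and -1.38 against females, and for Bace 4.61 (adjusted p = 1.79e-10), with 3.05 and -1.55. For nol it was -8.60 (adjusted p = 7.01e-12), with -7.43 and 1.18, and for fiz 3.45 (adjusted p = 2.28e-11), with 2.01 and -1.44. Among named genes of the lists, LManIII differed between the male groups by -5.56 (adjusted p = 7.01e-12), with -5.04 and 0.53 against females, and LManIV by -6.47 (adjusted p = 1.28e-08), with -5.46 and 1.02. The cytochrome P450 gene Cyp4e3 differed by 3.51 (adjusted p = 3.69e-11), with 1.93 and -1.57, and the nuclear receptor gene Hr3 by 1.74 (adjusted p = 5.74e-07), with 0.70 and -1.03. For Hr3, 82.7% of the exon length lies under another gene. Its call of roX-KO males against females was lost without any 1 of the roX-KO libraries (edgeR adjusted p = 0.0511 to 0.105) and without female 2 (0.0689). Hsp60A differed by -1.52 (adjusted p = 5.88e-09), with -0.58 and 0.95, and the cuticle gene Cpr49Ac, higher in the roX-KO males and at -0.45 in the wild-type males, by 1.59 (adjusted p = 3.18e-09).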

How the results depend on the processing

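Female 3 and the spread it adds set the number of calls. The biological coefficient of variation was 0.189 with it and 0.0509 without it. Over the fits that leave out 1 library, genes higher ran from 524 to 3384, genes lower from 1014 to 3566, X genes higher from 31 to 130, X genes lower from 344 to 1228, arm genes higher from 489 to 3198 and arm genes lower from 667 to 2316; the highest value of each came without female 3. A single fit of all 9 libraries called 1871 genes higher, 90 of them on the X and 1755 on the arms. With a mean CPM of at least 5, 23 X genes were higher. The other counts stayed within 1.5 times: the X, pericentromeric and chromosome 4 shifts kept their sign under every alternative run, from -0.53 to -0.44 for the X. No called named gene changed sign; tra, which was not called at 0.01, had -0.05 with arm scaling, -0.16 without roX-KO replicate 1 and -0.10 without female 1. Calls were lost by 25, 23 and 27 of 107 named genes without roX-KO replicate 1, 2 or 3, and by 3 and 8 without female 1 or 2. With total counts 5 lost their calls, and the medians of Polycomb targets, ecdysone and glycolysis genes changed sign. Without female 3 the medians of 5 lists did (Hox, ecdysone, fat body, neural stem cells and Malpighian tubules), without female 1 those of 3, with no filter those of 2, and under 6 other alternatives that of 1 list each. DESeq2's test called 1595 genes higher and 2174 lower. The labels number replicates in both groups, but libraries with the same number did not deviate together (correlations of 0.0145, 0.0538 and 0.0631 across genes), and roX-KO replicate 2 correlated better with female 1 (0.0675). With the replicate number as a block, 890 genes were higher and 1486 lower, and the paired permutation p of the X shift was 0.25, the smallest possible. Genes under the low-count filter, such as roX2, could not be compared at this depth.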
